A study of Mus musculus with 3 samples.

Results

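The lining and sublining markers of synovial fibroblasts were examined in cultured synovial cells of arthritic mice: Prg4, Clic5, Cd55, Thy1, Pdpn, Cdh11, Pdgfra, Pdgfrb, Fap and Vcam1. They were taken by gene symbol, through 11 probes whose platform symbol is one of these names, and the 10 genes are among 19316 genes named on the array, of which 15625 were detected on all 3 arrays. All 10 markers were among those 15625 genes, so no marker was lost to the detection limit.

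The cells came from the pannus of D1BC mice, which are DBA/1 mice carrying a transgene for murine B7.1 (CD80) driven by the rat collagen II promoter and enhancer. The paper states that chondrocytes and synovial cells of these mice express murine B7.1. Chronic arthritis of the mice was induced with bovine type II collagen. After overnight culture the cells were kept for 48 h with CTLA-4-Ig (abatacept, the extracellular part of CTLA-4 joined to a modified human IgG Fc region), with human IgG (hIgG) or with vehicle, which was DMEM medium with fetal bovine serum. All 3 cultures share the transgene, the immunization and the medium, and each gave RNA for 1 array. The dose of both proteins is 100 μg/ml in the study's methods and 100 μg in the sample titles, whereas the protocol text of the labels gives 100 mg/ml. With 1 array per condition no difference has a replicate check, no test was possible and no p-value is given, and whether the cultures came from the same mice is not told.

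The synovial membrane has a thin lining layer that faces the joint space and a deeper sublining with vessels. Lining fibroblasts make lubricin and hyaluronan and carry CD55, whereas sublining fibroblasts carry THY1 and lie around vessels. In mouse arthritis, fibroblasts with FAP but no THY1 have been linked to bone and cartilage damage and fibroblasts with both proteins to inflammation.

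Values are normalized signals, that is, blank-subtracted spot intensities that the authors scaled to a median of 25 on each array, and ratios are log2 of these signals. The arrays detected 84.0% of 23473 probes under CTLA-4-Ig, 81.7% under hIgG and 81.4% under vehicle. Positive control spots repeated within an array gave coefficients of variation between 6.17% and 13.3%, and the ± after a ratio is 1 SD computed from that spread and from the blank spots. It covers the spot-to-spot error within arrays and says nothing of the spread between cultures. The median log2 ratio of all 15625 genes stood at 0.09 for CTLA-4-Ig relative to hIgG, at 0.11 relative to vehicle and at 0.03 between hIgG and vehicle. Scaling on the probes detected on all 3 arrays lowered every ratio of CTLA-4-Ig by 0.10, so a value of this size has no settled sign.

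The labels call the cells primary fibroblast-like synoviocytes, and the markers show a mixed culture. All 12 general fibroblast genes were detected on every array, with summed signals of 48331 under CTLA-4-Ig, 43187 under hIgG and 45223 under vehicle. Most of each sum came from Vim, Fn1 and S100a4, at 16820, 10115 and 9234 under CTLA-4-Ig. All 12 macrophage markers were detected as well, with sums of 42077 under CTLA-4-Ig, 39700 under hIgG and 36475 under vehicle, including Lyz2 (lysozyme) at 32021, 28785 and 27289. Without Lyz2 the other 11 summed to 10056 under CTLA-4-Ig, 10915 under hIgG and 9186 under vehicle, with hIgG the highest. Such sums do not give the shares of the cell types. By the paper's flow cytometry, most cells in synovial cultures of D1BC mice lacked the leukocyte marker CD45. In such bulk RNA, fewer cells of a type and less RNA per cell cannot be told apart.

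**Figure D1:**
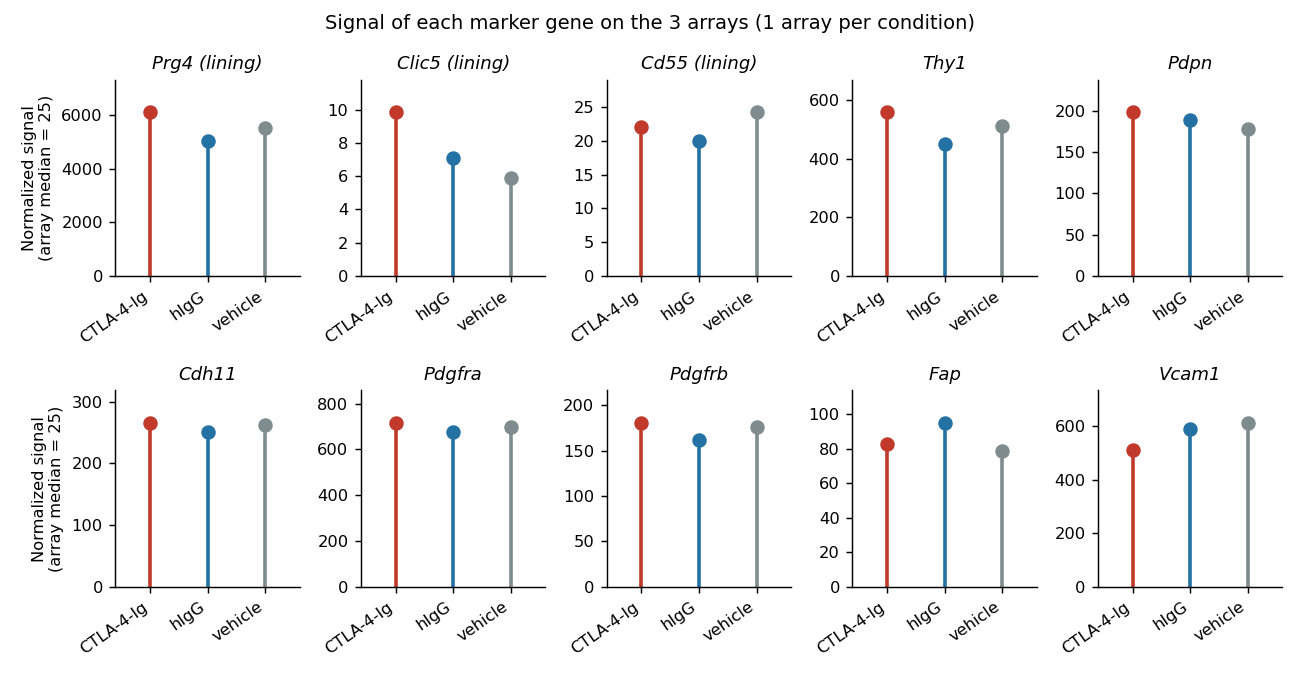
Normalized signal (linear axis from 0, a panel per gene with its own range) of the 10 fibroblast markers in the CTLA-4-Ig, hIgG and vehicle cultures, 1 point per array. The widest relative gap is that of Clic5, with 9.83 under CTLA-4-Ig, 7.1 under hIgG and 5.9 under vehicle.

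Markers were counted as apart where the log2 ratio was at least 0.32 either way, a limit that Clic5 alone of the 10 passed against a control. Over hIgG, 1 of 10 markers was at least 0.32 higher and 0 were lower, where 14.3% of all genes were higher and 3.99% lower. Over vehicle, 1 of 10 was higher and 0 were lower, against 18.1% and 3.92% of all genes. Between hIgG and vehicle 0 of 10 passed in either direction, against 8.08% of all genes higher and 6.43% lower. With the deposited scaling the share of markers past the limit was thus not above that of all genes in any of these comparisons. Under quantile normalization 1 of 10 was still higher over hIgG and 1 over vehicle, against 7.47% and 8.83% of all genes. Either way the count is that of Clic5 alone. At 1.5-fold with the deposited scaling only Clic5 over vehicle remained. Of all genes 3.40% (higher) and 1.13% (lower) passed over hIgG, 4.44% and 0.992% over vehicle, and 2.05% and 1.63% for hIgG over vehicle. Clic5 over vehicle fell just short of 1.5-fold (0.585) with cyclic loess, at 0.569, and with block medians, at 0.561.

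Prg4 encodes lubricin, the proteoglycan that lubricates the joint surface and is secreted by lining fibroblasts. Its signal was 6103 under CTLA-4-Ig, 5053 under hIgG and 5528 under vehicle. The log2 ratio was 0.27 ± 0.18 over hIgG and 0.14 ± 0.21 over vehicle, and that of hIgG over vehicle was -0.13 ± 0.23. CTLA-4-Ig was highest, and its gap to hIgG was beyond the within-array error while its gap to vehicle was not. Among the 528 genes whose mean signal was 1000 or more, the ratio over hIgG lay at percentile 95.3, where the middle 90% of these genes ran from -0.23 to 0.27.

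Clic5, chloride intracellular channel 5, is a protein tied to the actin cytoskeleton and serves as a marker of the lining layer. Its signal was 9.83 under CTLA-4-Ig, 7.1 under hIgG and 5.9 under vehicle, all well over the blank spots, at 24.8, 15.8 and 12.3 blank SDs above their mean. The log2 ratio was 0.47 ± 0.21 (1.38-fold) over hIgG and 0.74 ± 0.24 (1.67-fold) over vehicle, and 0.27 ± 0.27 for hIgG over vehicle. The CTLA-4-Ig array was thus the high one, and hIgG and vehicle differed by no more than the within-array error. Clic5 is a dim probe, and dim genes scattered widely: of the 4657 genes with a mean signal below 10, 28.5% were at least 0.32 higher over hIgG and 32.8% over vehicle. Within that band Clic5 lay at percentile 84.3 over hIgG and 93.5 over vehicle, inside the middle 90% of the band in both comparisons. With the scanner's background column subtracted by normexp in place of the blank spots, the ratios were -0.01 over hIgG and 0.00 over vehicle. That setting, with an offset of 50, flattens every dim gene (the SD of the ratios over hIgG in this band was 0.01 with it and 0.36 without), so it does not bear on Clic5 in particular.

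Since Clic5 was the only marker past the limit, the 250 bases before 1 of its start sites are shown (RefSeq, GRCm38.p6, chr17:44188322-44188571, plus strand, 5′ to 3′).
Clic5 promoter: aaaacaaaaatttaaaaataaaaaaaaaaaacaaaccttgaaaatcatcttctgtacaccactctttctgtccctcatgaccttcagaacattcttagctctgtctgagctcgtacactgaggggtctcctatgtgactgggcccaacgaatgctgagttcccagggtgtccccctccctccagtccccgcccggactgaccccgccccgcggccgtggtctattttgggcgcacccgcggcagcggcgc
A or T made up 47.2% of these bases, against 46.8% in all promoters of the table.

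Cd55, decay-accelerating factor, protects cells from complement and binds the receptor CD97, and its protein marks lining fibroblasts. The signal was 22.1 under CTLA-4-Ig, 20 under hIgG and 24.2 under vehicle. The log2 ratio was 0.14 ± 0.18 over hIgG and -0.13 ± 0.21 over vehicle, both within the within-array error. For hIgG over vehicle it was -0.28 ± 0.23, beyond that error, so that Cd55, unlike the other lining markers, was highest on vehicle. The mouse paralog Cd55b has its own probe, which gave a signal of 1.19 under CTLA-4-Ig but was not detected on hIgG or vehicle.

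Promoter sequences of 300 bases, 250 before and 50 after the start site, were at hand for 4 of the 10 markers (Clic5, Cd55, Pdpn and Pdgfra) and were searched on both strands for a kappaB motif, GGGNNTTCC, and a TEAD motif, GGAATG. The kappaB motif was found in Cd55 alone of these genes and in 5.82% of 32851 promoters. The TEAD motif was found in 0 of 4 and in 14.7% of all promoters. The Cd55 match is shown because it is the only one, on GRCm38.p6, chr1:130462786-130462814, minus strand, with the matched letters, which read as the motif on the opposite strand, in capitals.
Cd55 promoter: cattaatgagGGAACGCCCtcttgcacgc
The match begins 60 bases before the start site, and it is a description of letters and not a binding site.

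Thy1 encodes the GPI-anchored surface protein CD90, the marker that separates sublining from lining fibroblasts. Its signal was 557 under CTLA-4-Ig, 449 under hIgG and 511 under vehicle. The log2 ratio was 0.31 ± 0.18 over hIgG and 0.12 ± 0.21 over vehicle, and -0.19 ± 0.23 for hIgG over vehicle. CTLA-4-Ig was highest and hIgG lowest, and only the gap between these arrays was beyond the within-array error. The ratio over hIgG lay at percentile 94.4 among the 3782 genes with a mean signal of 100 to 1000. Centring each printing block of the array on its own median moved it to 0.12, and that over vehicle to -0.09. In the block that holds the Thy1 spot the median ratio of all genes was 0.20 in both comparisons. The second Thy1 probe was not detected on any array, at 1.29, 1.85 and 1.77 blank SDs on CTLA-4-Ig, hIgG and vehicle, and it did not enter these values.

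Pdpn encodes podoplanin, a mucin-like glycoprotein of activated synovial fibroblasts that binds CLEC-2 on platelets. Its signal was 198 under CTLA-4-Ig, 189 under hIgG and 178 under vehicle, and the log2 ratio was 0.07 over hIgG and 0.15 over vehicle. Cdh11, cadherin-11, joins lining fibroblasts to each other, and its signal was 265 under CTLA-4-Ig, 251 under hIgG and 262 under vehicle. Its log2 ratios were 0.08 and 0.02. Both genes stayed within the within-array error in all 3 comparisons.

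The PDGF receptors mark fibroblasts in general (Pdgfra) and fibroblasts and pericytes around vessels (Pdgfrb). Pdgfra gave a signal of 715 under CTLA-4-Ig, 675 under hIgG and 697 under vehicle, and its log2 ratio was 0.08 over hIgG and 0.04 over vehicle. Pdgfrb gave 180.4 under CTLA-4-Ig, 162 under hIgG and 176 under vehicle, with log2 ratios of 0.15 and 0.03. The gaps of both receptors were within the within-array error of about 0.18 to 0.23. Of the markers named so far, Pdpn, Cdh11 and Pdgfra over hIgG, and Thy1, Cdh11, Pdgfra and Pdgfrb over vehicle, had ratios whose sign turned under some other scaling, apart from turns with normexp.

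Fap, fibroblast activation protein, is a surface serine protease of activated fibroblasts. Its signal was 83.0 under CTLA-4-Ig, 94.8 under hIgG and 78.8 under vehicle, and it was the only marker that was highest on hIgG. The log2 ratio was -0.19 ± 0.18 over hIgG and 0.07 ± 0.21 over vehicle, whereas hIgG over vehicle gave 0.27 ± 0.23. Both gaps to the hIgG array were only just beyond the within-array error and short of 0.32, and the ratio over vehicle was within that error and turned in sign under other scalings. Among the 3982 genes with a mean signal of 25 to 100, Fap lay at percentile 6.05 over hIgG and at 94.4 for hIgG over vehicle.

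Vcam1 encodes an adhesion molecule that holds leukocytes through the integrin VLA-4 and is induced by inflammatory cytokines. Its signal was 513 under CTLA-4-Ig, 588 under hIgG and 612 under vehicle, the only marker lowest on CTLA-4-Ig. The log2 ratio was -0.20 ± 0.18 over hIgG and -0.25 ± 0.21 over vehicle, both beyond the within-array error, whereas hIgG and vehicle differed by -0.06 ± 0.23. In its band of 3782 genes Vcam1 lay at percentile 8.12 over hIgG and 4.18 over vehicle, outside the middle 90% only over vehicle. It stayed inside the limit of 0.32, except that over vehicle it passed with scaling on the probes detected on all 3 arrays and with block medians.

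**Figure D2:**
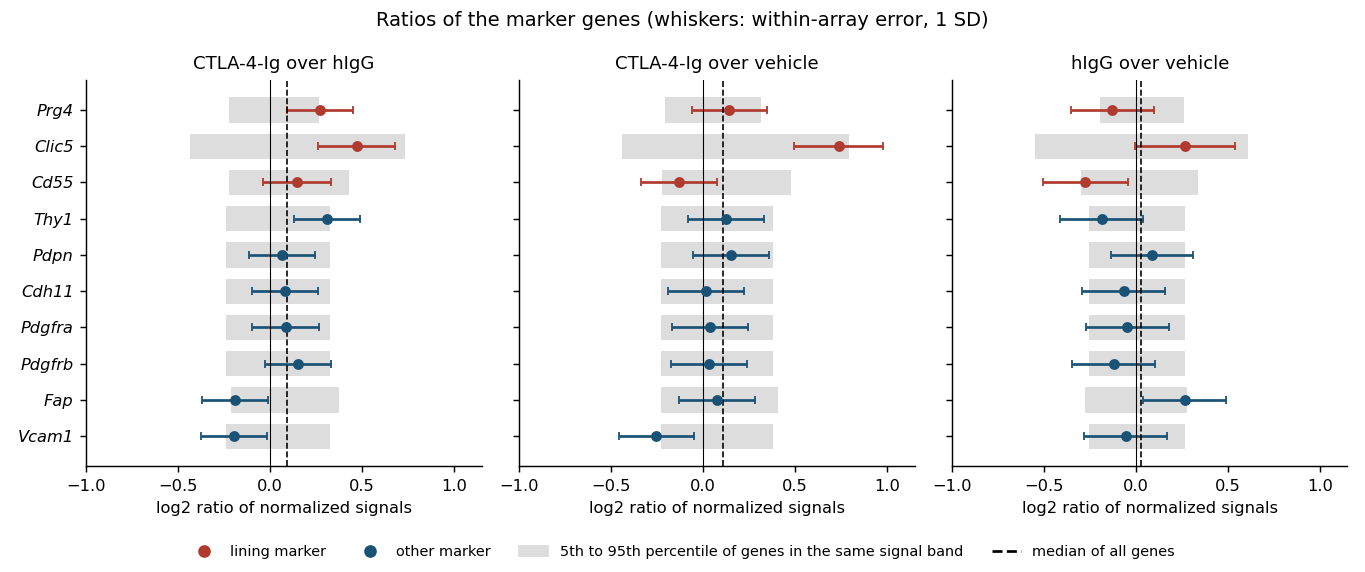
Log2 ratio of the normalized signals of the 10 markers in the 3 comparisons (CTLA-4-Ig over hIgG, CTLA-4-Ig over vehicle, hIgG over vehicle), with whiskers of 1 SD of the within-array error, grey bars for the middle 90% of genes of like signal and a dashed line at the median of all genes. Clic5 is the only marker beyond the limit of 0.32, at 0.47 over hIgG and 0.74 over vehicle, and Vcam1 is below 0 in both comparisons of CTLA-4-Ig.

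Over all markers, 7 of 10 were highest on CTLA-4-Ig, 1 on hIgG (Fap) and 2 on vehicle (Cd55 and Vcam1). Of all genes, 56.4% were highest under CTLA-4-Ig, 22.6% under hIgG and 20.5% under vehicle. The lowest value was on CTLA-4-Ig for 1 marker (Vcam1), on hIgG for 6 and on vehicle for 3 (Clic5, Pdpn and Fap), against 19.1%, 33.6% and 45.9% of all genes. The median log2 ratio of the markers was 0.11 over hIgG and 0.06 over vehicle, while hIgG over vehicle gave -0.06, each within 0.09 of the median of all genes. Ratios beyond the within-array error were seen in 5 of 10 markers over hIgG (Prg4, Clic5, Thy1, Fap and Vcam1), 2 over vehicle (Clic5 and Vcam1) and 2 for hIgG over vehicle (Cd55 and Fap). Of all genes, 36.5% lay beyond their own within-array error over hIgG and 35.9% over vehicle, while hIgG over vehicle gave 19.9%, and nothing particular to the markers is read from these counts.

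By layer, the median of the 3 lining markers was 0.27 over hIgG and 0.14 over vehicle, while hIgG over vehicle gave -0.13. In each comparison this median is the value of Prg4 alone, with Clic5 above it and Cd55 below it. For the other 7 markers the median was 0.08, 0.04 and -0.06. Under other scalings the CTLA-4-Ig values of these 7 turned in sign, and with normexp the lining medians were -0.01, 0.00 and 0.00. Those normexp medians are the values of the dim Clic5, which that setting flattens, whereas Prg4 went to 0.74, 3.94 and 3.19. Over hIgG all 3 lining markers had ratios above the median of all genes, which by definition has as many genes above as below. Cd55 was there within the within-array error. Over vehicle Cd55, at -0.13, was below the median of all genes, and Prg4 and Cd55 were within the within-array error.

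**Figure D3:**
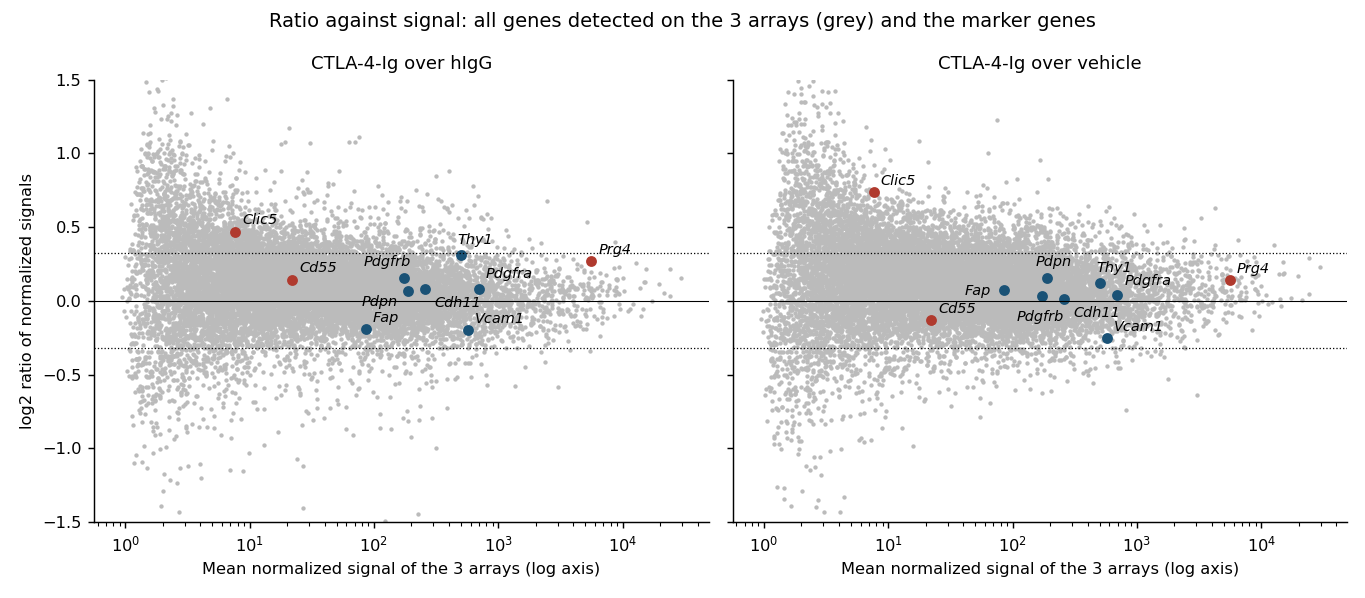
Log2 ratio against the mean normalized signal (log axis) for the 15625 genes detected on all 3 arrays (grey) with the lining markers in red and the other markers in blue, for CTLA-4-Ig over hIgG (left) and over vehicle (right). Dotted lines stand at 0.32 either way and 16 genes lie beyond the axis; the grey cloud widens at low signals, where Clic5 lies.

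Other lining genes, from a list of 9 of which 8 were detected on all arrays, had a median of 0.23 over hIgG and 0.00 over vehicle on the log2 scale, while hIgG over vehicle gave -0.18. Over hIgG, 3 of the 8 were at least 0.32 higher and 0 were lower. Hbegf, a growth factor of the EGF family, was furthest, with signals of 85.7 under CTLA-4-Ig, 51.2 under hIgG and 71.6 under vehicle (0.74 over hIgG). The serine protease gene Htra1 was at 0.56 over hIgG and the hyaluronan synthase gene Has1 at 0.34, and the lowest was the integrin gene Itgb8 at -0.21. Over vehicle 0 of 8 passed the limit in either direction, and for hIgG over vehicle 2 (Hbegf and Has1) were at least 0.32 lower. The hIgG array was the lowest for 5 of the 8 genes, CTLA-4-Ig for 2 and vehicle for 1. Counts in this and the following lists stand against 14.3% of all genes at least 0.32 higher and 3.99% lower over hIgG. Over vehicle these shares were 18.1% and 3.92%, and for hIgG over vehicle 8.08% and 6.43%. The lowest value was on hIgG for 33.6% of all genes, on CTLA-4-Ig for 19.1% and on vehicle for 45.9%. The lists were chosen with earlier results of these data known, so their counts are descriptions only.

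Of 13 other sublining genes 12 were detected on all arrays. Their median was 0.32 over hIgG and 0.02 over vehicle, while hIgG over vehicle gave -0.22. Over hIgG, 6 of 12 were at least 0.32 higher and 0 lower, and over vehicle 0 of 12 passed in either direction. The highest was Comp, cartilage oligomeric matrix protein, with 931 under CTLA-4-Ig, 664 under hIgG and 904 under vehicle (0.49 over hIgG). Sfrp1, a secreted Wnt inhibitor, gave 439, 325 and 462 and Mfap5, a microfibril protein, 1312, 939.9 and 1212 on CTLA-4-Ig, hIgG and vehicle. Notch3, the Notch receptor of perivascular cells, was lowest at 0.02. For hIgG over vehicle 4 of 12 were at least 0.32 lower, and the hIgG array was the lowest for 11 of the 12. Of all genes, 6.43% and 33.6% did so. Dkk3, a secreted glycoprotein, was at 0.48 over hIgG and also the highest of the list over vehicle, at 0.32, just short of the limit.

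The PDGF ligands, which activate the receptors Pdgfra and Pdgfrb, were all detected, with a median of 0.32 over hIgG and 0.13 over vehicle. Under some other scaling the median over vehicle turned in sign for these ligands, as for the sublining genes, the binding partners and the macrophage markers. Pdgfb, a ligand of both receptors, gave 11.9 under CTLA-4-Ig, 9.6 under hIgG and 6.4 under vehicle, a log2 ratio of 0.89 over vehicle, with 0.58 for hIgG over vehicle. Pdgfd, a ligand of the beta receptor, gave 9.82 under CTLA-4-Ig, 5.3 under hIgG and 9.4 under vehicle, a ratio of 0.89 over hIgG and 0.06 over vehicle. Pdgfc was at 0.33 over hIgG and Pdgfa at -0.14. Pdgfb and Pdgfd were dim, in the signal range where Clic5 lies, and the receptors Pdgfra and Pdgfrb did not show these gaps.

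Of 18 binding partners of the markers, 17 were detected on all arrays, and Clec1b, the receptor of podoplanin, on 1. Their median was 0.20 over hIgG, with 3 of 17 at least 0.32 higher and 1 lower, and 0.07 over vehicle, with 2 higher and 2 lower. Adgre5, which encodes CD97, the receptor of CD55, gave 429 under CTLA-4-Ig, 335 under hIgG and 410.0 under vehicle (0.35 over hIgG). Itgb7, an integrin beta chain that binds VCAM-1 together with Itga4, gave 8.10, 4.2 and 6.6 on CTLA-4-Ig, hIgG and vehicle (0.95 over hIgG), whereas Itga4 was at 0.02. Itgax, the myeloid integrin CD11c, was at 0.74 over hIgG. Tlr2, a bacterial lipopeptide receptor to which lubricin binds, was the low one, with 289 under CTLA-4-Ig, 478 under hIgG and 385 under vehicle (-0.73 over hIgG and -0.41 over vehicle). Msn, moesin, which links podoplanin to actin, was at 0.62 over vehicle, and Cd44 at -0.59, with signals of 0.997 under CTLA-4-Ig, 0.9 under hIgG and 1.5 under vehicle, close to the detection limits of 0.79 to 0.96.

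**Figure D4:**
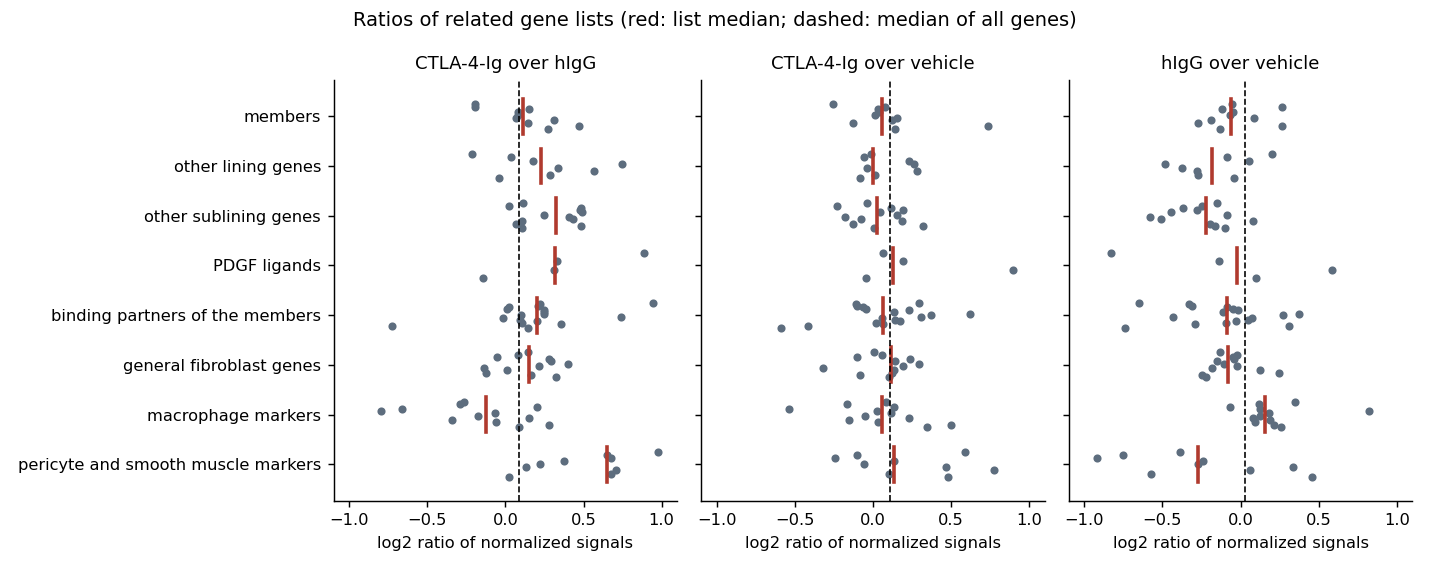
Log2 ratio in the 3 comparisons of each gene in the lists set beside the 10 markers, which are on top (1 point per gene, red bar at the list median, dashed line at the median of all genes). The medians over hIgG run between -0.12 for macrophage markers and 0.65 for pericyte and smooth muscle markers, and that of the 10 markers is 0.11.

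General fibroblast genes had a median of 0.15 over hIgG and 0.11 over vehicle, with 2 of 12 at least 0.32 higher over hIgG (Fn1, fibronectin, at 0.40, and Col1a1, a collagen I chain, at 0.32) and 0 lower. Lum, lumican, was lowest at -0.14. Macrophage markers had a median of -0.12 over hIgG and 0.16 for hIgG over vehicle, with 0 of 12 higher and 3 lower over hIgG. Fcgr1, a high-affinity IgG receptor, gave 235 under CTLA-4-Ig, 408 under hIgG and 231 under vehicle, Cd163, a haemoglobin scavenger receptor, was at -0.66 over hIgG, and Cd68, a lysosomal glycoprotein, was highest at 0.28. Among the 10 markers, Fap was also highest under hIgG.

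Pericyte and smooth muscle markers, which overlap in perivascular cells with Pdgfrb, had a median of 0.65 over hIgG and 0.14 over vehicle, while hIgG over vehicle gave -0.28, and 9 of 10 were detected on all arrays. Their summed signals were 3460 under CTLA-4-Ig, 2189.8 under hIgG and 3283 under vehicle, and most of each sum was Acta2. Over hIgG 6 of 9 were at least 0.32 higher and 0 lower, against 14.3% and 3.99% of all genes. Acta2, smooth muscle actin, gave 2884 under CTLA-4-Ig, 1804 under hIgG and 2681 under vehicle (0.68 over hIgG), and Cnn1, calponin, 20.4, 12.8 and 24.2. The dim Abcc9 and Myh11 were at 0.98 and 0.71, and Rgs5, a pericyte marker, was lowest at 0.02. Signals of Abcc9, Myh11 and Rgs5 under CTLA-4-Ig were only 2.56, 3.93 and 3.76. The hIgG array was the lowest for 6 of the 9 and vehicle for 3 (Rgs5, Mcam and Myh11). For hIgG over vehicle 3 of the 9 were above 0, among them the pericyte markers Rgs5 and Mcam at 0.45 and 0.34. The other 6 were below 0, among them Cspg4 at -0.28 and Abcc9 at -0.39. Among the 10 fibroblast markers hIgG was lowest for 6. Whether pericytes or smooth muscle cells were present in the cultures was not tested, nor was their part in the values of the 10 markers.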

How the data were processed

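Cy5-labelled RNA of the CTLA-4-Ig, hIgG and vehicle cultures was hybridized by the authors to 1 mouse 3D-Gene oligo array each. The authors deposited scanner files with spot intensities and a table of normalized intensities on a linear scale, in which blanks were subtracted, arrays had been scaled to a median of 25 and probes not detected are empty. A genome build is not given in the sources used here. The table was the source of all values here. It holds 6 decimals for CTLA-4-Ig and 1 for the other arrays. Its blank rule was inferred: dropping 5% of 384 blank spots at each end and calling a probe detected at 2 SDs above their mean gave the table's values within 0.06 for all but 1 probe per array. No column of sample values was left unused (0).

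Probes were named by the platform annotation, updated through gene identifier (20556 probes) or accession (9) to RefSeq, with the platform symbol kept for 125, and 2783 probes had no name. A gene's value was the mean of log2 over its probes detected on all arrays. The limit was a log2 ratio of 0.32, with 1.5-fold as an alternative. Members and lists were chosen with earlier results of these data known. All 10 markers are named, and of each other list the genes 1.5-fold apart in any comparison (up to 4 each way) and the highest and lowest over hIgG. Acan, Adgre5, Cd3e, Cd55b, Clec1b, Col1a1, Col2a1, Cspg4, Dkk3, Has1, Htra1, Itga4, Lyz2, Mcam, Mfap5, Pdgfc, Pecam1, S100a4, Sfrp1 and Vim were named outside this rule, once their values had been seen. As alternatives served scanner intensities, quantile normalization, cyclic loess, the 75th percentile, a median taken over jointly detected probes, the brightest probe, normexp (offset 50), a mean signal of at least 25 and, chosen after seeing the data, block medians over 24 blocks. Computing used Python 3.11.15, numpy 2.4.6, pandas 2.3.3, matplotlib 3.10.9, R 4.3.3 and limma 3.58.1. The counting was tested on simulated data with less noise than these arrays, which checks the code and not the limit of 0.32.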

Additional observations from a re-analysis of the deposited data

How the results depend on the processing

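No paired analysis was possible because every group consists of a single array. Of the marker ratios recomputed under the alternatives, 242 moved by less than 1 SD of the control comparison, 20 moved further and 2 reversed. A ratio counted as reversed only if it had passed 0.32 with the deposited scaling and then changed sign. The reversed ratios were those of Clic5 under normexp, at -0.0092 over hIgG and -0.0045 over vehicle. Sign changes of smaller ratios are counted among the 242 and the 20. A single sign under every setting was kept by 2 of the 10 markers over hIgG and by 3 over vehicle. Between the control arrays 6 markers kept it. Many of the 242 could hardly move, so their number is no measure of stability. Each marker had 1 detected probe, so taking the brightest probe returned the same ratios. A mean signal of at least 25 only dropped markers and left the other ratios unchanged. Scanner intensities rebuilt the same values, with shifts of at most 0.0113. Percentile scaling moved all markers of a comparison by the same small amount. Normexp used the scanner's background column, which followed the spot's own intensity (log2 r of 0.990 to 0.997 across spots) and on vehicle exceeded it for Prg4, at 10163 against 9924, where the ratio became 3.94 over vehicle. It also turned the sign over hIgG of Cd55 (-0.01), Thy1 (-0.09), Cdh11 (-0.26), Fap (0.18) and Vcam1 (0.03), over vehicle of Thy1 (-0.33), Pdpn (-0.22) and Cdh11 (-0.11), and for hIgG over vehicle of Prg4 (3.19), Pdpn (-0.22), Cdh11 (0.15) and Pdgfrb (0.09). The median of the 10 markers over hIgG moved to 0.05 with quantile normalization (0.0518) and cyclic loess (0.0516), 0.0094 with scaling on jointly detected probes, 0.0166 with normexp and 0.0286 with block medians. Over vehicle it moved to -0.0030, -0.0098, -0.0484, -0.0093 and -0.0620 under the same alternatives, and for hIgG over vehicle to 0.0020 with normexp. The count of markers at least 0.32 higher became 0 over hIgG and 0 over vehicle with a mean signal of at least 25, which left 8 markers without Clic5 and Cd55, and 0 over hIgG at 1.5-fold. It became 1 lower over vehicle with scaling on jointly detected probes and with block medians (Vcam1) and with normexp (Thy1), and under normexp the 1 marker higher over hIgG and over vehicle was Prg4 and not Clic5. For hIgG over vehicle it became 1 higher with normexp (Prg4) and 1 lower with block medians (Cd55). Under quantile normalization 7.47% of all genes were at least 0.32 higher over hIgG and 7.69% lower, and 8.83% and 8.48% over vehicle, in place of the larger shares of higher genes given above. With its offset of 50 and this background column, normexp brought dim genes to ratios near 0 by construction (SD of 0.01 below a signal of 10, against 0.36), so its values say nothing of the stability of dim genes or of lists rich in them. The number of arrays limits the precision.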

Other observations

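Markers of further cell types were read for cells other than fibroblasts. Of the T and B cell markers, Cd3e, a chain of the T cell receptor complex, was not detected on any array, and 5 of 6 markers with a probe were detected on all 3, with summed signals of 28.4 under CTLA-4-Ig, 24.8 under hIgG and 21.7 under vehicle. Cd79a, a chain of the B cell receptor complex, was at 0.49 over hIgG and 0.70 over vehicle, Cd4 at 0.23 and 0.59, and the B cell marker Ms4a1 was lowest, at -0.24 over hIgG. Signals of Cd79a, Cd4 and Ms4a1 were dim, from 1.1 for Ms4a1 to 7.17 for Cd79a under CTLA-4-Ig. Among genes with a mean signal below 10, 28.5% were at least 0.32 higher over hIgG and 32.8% over vehicle. Of 9 endothelial markers 8 were detected on all arrays, summing to 83.4 under CTLA-4-Ig, 86.0 under hIgG and 81.1 under vehicle, while Pecam1 was detected on 1 array. The receptor Tie1 was highest over hIgG at 0.63 and the cadherin Cdh5 lowest at -0.39, and the angiopoietin receptor Tek was at -0.58 for hIgG over vehicle, all with signals of 0.99 to 2.48.

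Of 8 chondrocyte and osteoblast markers 7 were detected on all arrays, and Acan, the cartilage proteoglycan aggrecan, on none. Ibsp, bone sialoprotein, gave 31.8 under CTLA-4-Ig, 14.1 under hIgG and 16.5 under vehicle, and its log2 ratio was 1.17 over hIgG and 0.94 over vehicle. The other 6 of these genes lay between the lowest, the osteoblast transcription factor Sp7 at -0.22, and Col2a1, the cartilage collagen, at 0.33 over hIgG.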
